A study of Mus musculus with 56 samples.

Results

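Translation initiation factor genes and the genes of the EIF2 alpha kinases were followed in mouse liver across 7 treatment groups. The members were the protein-coding genes of GENCODE vM21 (mouse build GRCm38) whose symbols begin with Eif and a digit from 1 to 6, and this rule gave 52 autosomal genes of the 45513 genes listed in the count files. 3 further genes that match the pattern lie on chromosomes X and Y and were left out. 51 of the 52 members had enough reads to be tested together with all other genes (14314 genes in all), and the exception was Eif4e1b, an oocyte cap-binding protein gene, which had 0 reads in all 56 mice.

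The samples were livers of female APOE*3Leiden.CETP mice, 9 to 14 weeks old at the start, with 8 mice in each group. These transgenic mice carry the human APOE*3-Leiden and APOC1 genes and human CETP, the last under its own flanking regions, and they model human-like lipoprotein metabolism and atherosclerosis. Every group, the control included, ate a Western-type diet with 15% cacao butter and 0.15% cholesterol. The control group received the vehicle, 5% carboxymethyl cellulose, by gavage, and the treated groups received imatinib at 150 mg/kg by 2 gavages a day, nilotinib at 10 or 30 mg/kg or ponatinib at 3 or 10 mg/kg by 1 gavage a day with a second gavage of vehicle, or vehicle with L-NAME, a nitric oxide synthase inhibitor, at 0.12 to 0.2% in the drinking water. Imatinib, nilotinib and ponatinib are BCR-ABL1 tyrosine kinase inhibitors used in chronic myeloid leukemia. They were given for 16 weeks, while the duration of L-NAME is not given in the sources used here. The purpose of the study was to compare the cardiovascular effects of these inhibitors, and the comparisons here ask how the messages of the initiation machinery differed from control, between doses and between compounds.

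Initiation is the step at which a ribosome finds the start codon of a message. The eIF4 factors bind the cap and unwind the message, with eIF4G as the scaffold that joins the cap-binding protein eIF4E to the helicase eIF4A, and the eIF4E-binding proteins compete with eIF4G until the kinase mTORC1 phosphorylates them. eIF3 holds the small ribosomal subunit on this scaffold, eIF2 delivers the initiator tRNA, and eIF2B recharges eIF2 with GTP. The EIF2 alpha kinases phosphorylate eIF2 under stress, which blocks eIF2B, lowers general translation and raises translation of the transcription factor ATF4. In liver they answer to lack of heme, double-stranded RNA, misfolded protein in the endoplasmic reticulum and lack of amino acids.

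Levels are given as CPM, counts scaled to the library's counted reads by TMM, and a member was called changed when the adjusted p of edgeR's quasi-likelihood test, with Benjamini-Hochberg adjustment over all genes tested, was below 0.05. The libraries held 5342379 to 17996732 counted reads, except 1 L-NAME library with 97473341. Reads that the counting assigned to no annotated feature are called reads outside genes here. Whether they lie in introns or between genes is not given. They made up 7.77 to 8.94% of counted and unassigned reads in the control mice. The range reached 14.4% with imatinib, 15.5% with ponatinib at 10 mg/kg and 17.2% with L-NAME. 6 libraries lay above 12%, and none of them was a control. The 8 hepatocyte markers summed to between 69503 and 152049 CPM in every mouse, and none of the 7 marker lists for liver cell types had a marker at 0 in all mice of a group. In whole liver, fewer cells of a type and less RNA per cell cannot be told apart.

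The 250 bases before the RefSeq start of 4 members are shown first, because Eif4g1 and Eif4ebp2 are the members that were lower in most treated groups and Eif1 and Eif3k are members that were higher in 3 of them. They were read from the RefSeq promoter table of GRCm38.p6, in the direction of the gene, at chr16:20672477-20672726 on the plus strand for Eif4g1, chr10:61452670-61452919 on the minus strand for Eif4ebp2, chr11:100319699-100319948 on the plus strand for Eif1 and chr7:28981889-28982138 on the minus strand for Eif3k. Capitals mark matches, on either strand, to the E-box CACGTG, the NF-Y box CCAAT, the GC box GGGCGG and the ETS core CCGGAAG.
Eif4g1: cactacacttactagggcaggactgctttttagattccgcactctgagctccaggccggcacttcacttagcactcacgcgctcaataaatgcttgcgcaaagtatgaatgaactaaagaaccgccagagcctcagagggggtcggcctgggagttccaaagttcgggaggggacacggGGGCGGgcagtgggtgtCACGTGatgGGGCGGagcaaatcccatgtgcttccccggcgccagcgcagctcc
Eif4ebp2: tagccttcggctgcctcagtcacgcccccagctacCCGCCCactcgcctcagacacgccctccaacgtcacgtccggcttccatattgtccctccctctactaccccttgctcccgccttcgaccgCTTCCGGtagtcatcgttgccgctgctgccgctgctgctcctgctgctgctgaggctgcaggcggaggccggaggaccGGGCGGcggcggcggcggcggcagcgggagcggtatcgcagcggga
Eif1: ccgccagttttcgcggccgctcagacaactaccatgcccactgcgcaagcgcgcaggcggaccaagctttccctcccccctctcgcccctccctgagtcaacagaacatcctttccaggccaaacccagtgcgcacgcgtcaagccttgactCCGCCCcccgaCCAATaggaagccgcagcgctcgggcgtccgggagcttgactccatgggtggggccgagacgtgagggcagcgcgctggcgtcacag
Eif3k: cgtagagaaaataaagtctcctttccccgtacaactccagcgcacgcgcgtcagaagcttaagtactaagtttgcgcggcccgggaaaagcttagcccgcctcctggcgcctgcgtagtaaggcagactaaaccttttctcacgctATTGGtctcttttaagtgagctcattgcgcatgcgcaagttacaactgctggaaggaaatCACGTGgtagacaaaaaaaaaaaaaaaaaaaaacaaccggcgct

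The Eif4g1 window held an E-box at bases -54 to -49 before the start, between 2 GC boxes, and no match overlapped another in these 4 windows. This Eif4g1 window lies inside the annotated gene (20668313 to 20692884), so it precedes an internal start and not the outermost one. The Eif4ebp2 window held 2 GC boxes and an ETS core, the Eif1 window a GC box and an NF-Y box, and the Eif3k window an NF-Y box and an E-box at -44 to -39. Of the 52 members, 40 had a window in the table. 28 of these (70.0%) held a GC box, against 32.7% of the 32851 windows of all genes. An E-box was found in 7 members (17.5%, against 6.02% of all windows), an ETS core in 9 (22.5%, against 6.91%) and an NF-Y box in 12 (30.0%, against 33.85%). The composite site of C/EBP and ATF factors, TGATGNAA on either strand, was found in 0 of the 40 windows and in 3.45% of all windows. For a site this rare, 40 windows are too few to set these shares apart. Among members with a window, 3 of the 5 that were called higher than control held an E-box and 4 an NF-Y box, while among the 8 called lower 1 held an E-box, 2 an NF-Y box and 6 a GC box. The windows of members were richer in G and C than all windows, with a median of 59.6% against 52.4%. The part of base composition in these shares was not tested. These matches describe letters in a window and not binding.

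In control liver, levels per kilobase of merged exon spanned the whole family. Eif5a, whose product keeps ribosomes moving at difficult residues, stood highest with 103 ± 11.3 CPM per kb (SD, n = 8). The scaffold gene Eif4g1 followed with 76.1 ± 5.89 CPM per kb, then Eif4b, whose product stimulates the helicase, with 68.3 ± 10.0 CPM per kb. Eif5a and Eif4g1 differed by more than these spreads, while the spreads of Eif4g1 and Eif4b overlapped. Among the kinases, Eif2ak1 (HRI, the heme-regulated kinase) was highest with 9.96 ± 1.38 CPM per kb, and Eif2ak3 (PERK), Eif2ak2 (PKR) and Eif2ak4 (GCN2) had 4.28 ± 1.99, 3.29 ± 0.677 and 1.47 ± 0.267 CPM per kb, the first 2 of these within their spreads of each other. The lowest member with any read was Eif5a2, a paralog of Eif5a, with 0.0952 ± 0.129 CPM per kb. The 52 members together took 0.386 to 0.467% of counted reads in the control mice, and the medians of the treated groups lay between 0.362 and 0.413%.

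**Figure D1:**
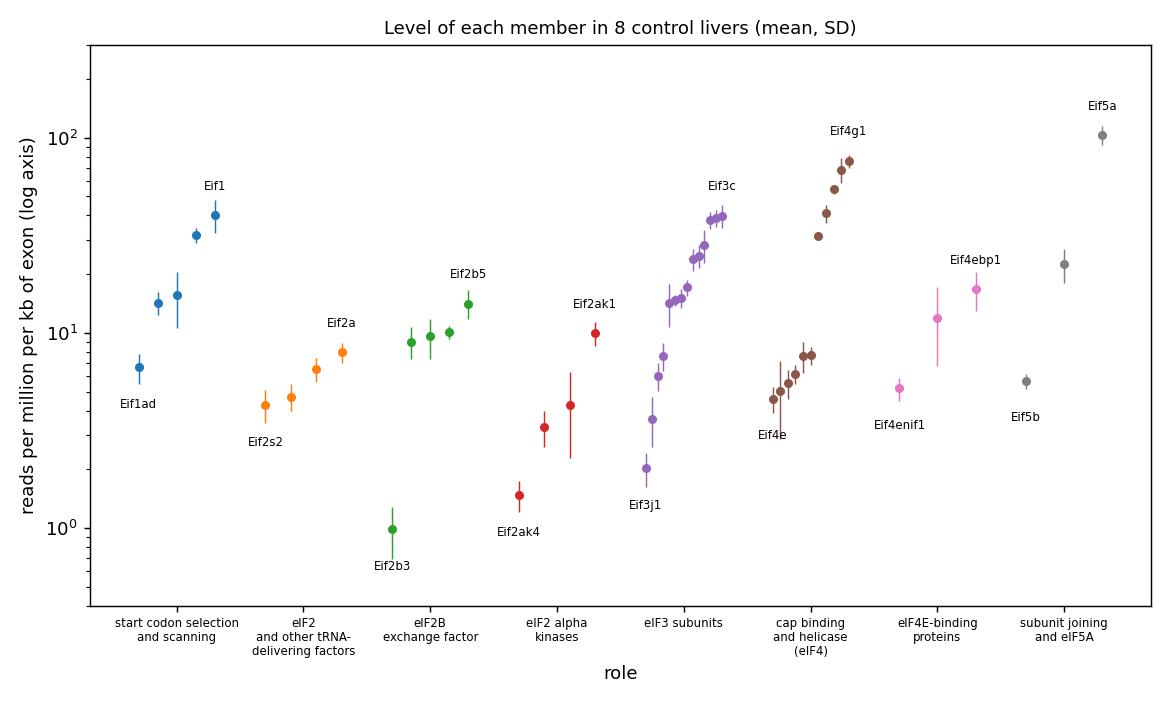
Mean level of each member in the 8 control livers by role, in CPM per kb of exon on a log axis, with bars of 1 SD. Eif4e1b, which had 0 reads, and Eif4ebp3 and Eif5a2, whose SD exceeded the mean, are left out. Eif5a stands highest at 103 CPM per kb, and the 4 kinase genes span 1.47 to 9.96.

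Of the 51 members tested, 15 were called in at least 1 of the 6 comparisons with control, 5 of them higher and 10 lower, and 0 members were called in opposite directions in different comparisons. The 6 comparisons share the same 8 control mice, so agreement between them is not independent. Imatinib had 4 members higher, beside 5.69% of all genes called higher, and 3 lower, beside 4.58% called lower. Nilotinib at 10 mg/kg had 0 members higher (background 0.468%) and 2 lower (background 0.943%), and at 30 mg/kg it had 3 higher (background 2.34%) and 4 lower (background 3.43%). Ponatinib at 10 mg/kg had 2 members higher (background 7.24%) and 6 lower (background 5.87%). L-NAME had 4 higher (background 5.55%) and 7 lower (background 6.24%). At 3 mg/kg ponatinib had 0 members called by edgeR, beside 0.0419% of all genes (6), and 0 by DESeq2, beside 46 genes. limma voom called 2 members beside 571 genes. In the edgeR fit 7 of the 51 members had an unadjusted p below 0.05, beside 9.96% of all genes.

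In both directions together, the called share of members and of all genes was 13.7% and 10.3% with imatinib, 3.92% and 1.41% with the lower nilotinib dose, 13.7% and 5.77% with the higher one, 15.7% and 13.1% with ponatinib at 10 mg/kg, and 21.6% and 11.8% with L-NAME. The median log2 fold change over the members was 0.03 with imatinib, 0.05 with nilotinib at 30 mg/kg, -0.06 with ponatinib at 10 mg/kg and -0.03 with L-NAME, while over all genes tested it was -0.02, 0.03, -0.01 and 0.02. 36 of the 51 members were called in 0 of the 6 comparisons.

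These counts depended on the fit. With the share of reads outside genes as a covariate, the members called went from 7 to 2 with imatinib, from 2 to 0 and from 7 to 1 with the nilotinib doses, from 8 to 1 with ponatinib at 10 mg/kg and from 11 to 1 with L-NAME, and all genes called went from 1471 to 665, from 202 to 13, from 826 to 97, from 1877 to 364 and from 1688 to 252. Of 35 calls of named members, 30 were lost in that fit, and the 5 that held were Eif4g1 in 4 comparisons and Eif4e3 with imatinib. Without control replicate 1 imatinib had 2 members called in place of 7, with 1077 genes in all.

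**Figure D2:**
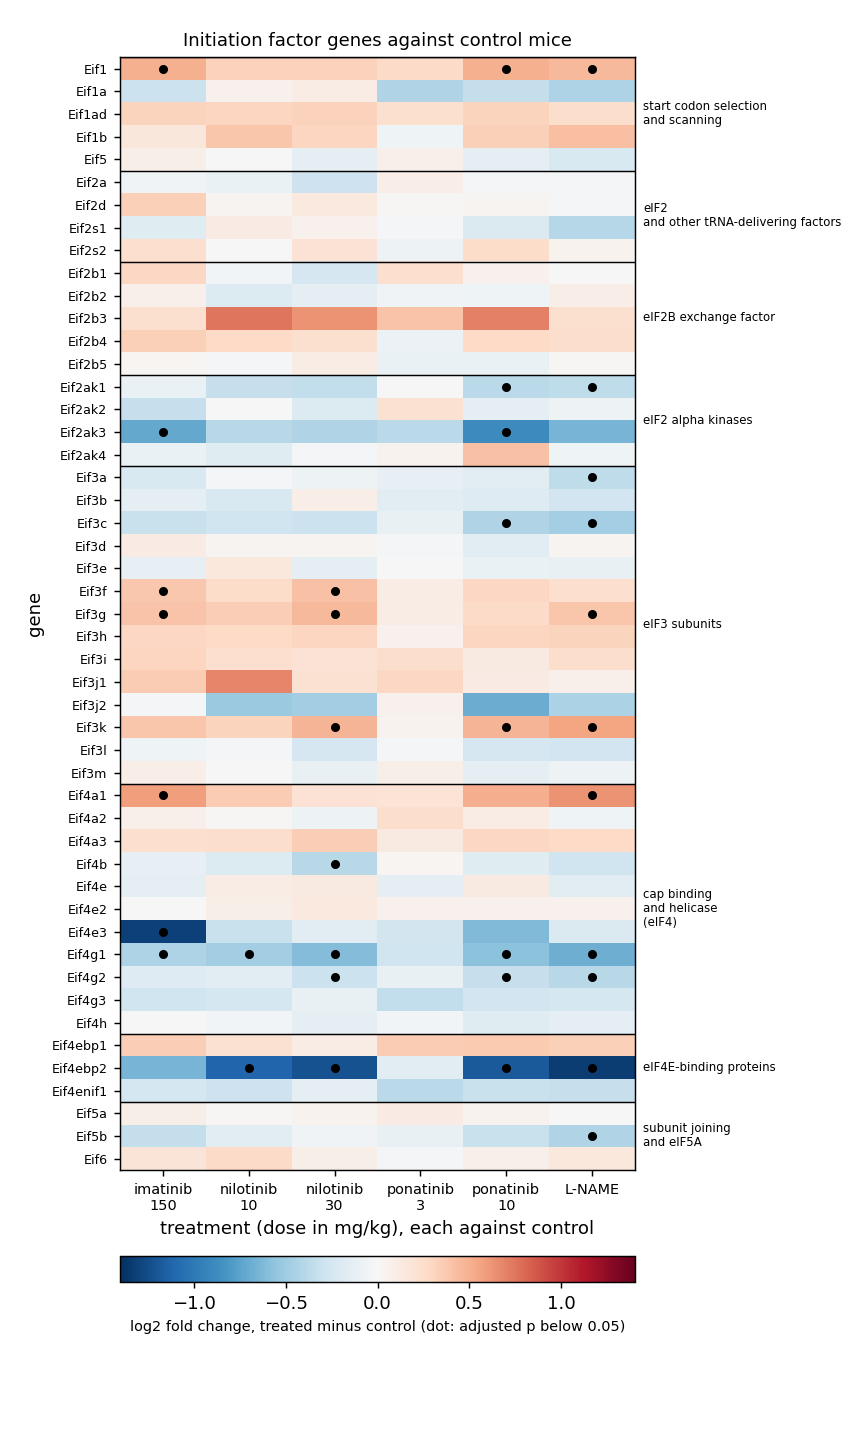
log2 fold change of 49 members against control for 6 treatments, colored from blue (lower) to red (higher), with rows ordered by role and a dot where the adjusted p was below 0.05. Eif4ebp3 and Eif5a2, which had 0 reads in several mice of most groups, are left out of the picture. Eif4g1 carries a dot in 5 of the 6 columns and Eif4ebp2 in 4.

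The scaffold of the cap-binding complex was the member with the most calls. Eif4g1 (ENSMUSG00000045983, chromosome 16, 20668313 to 20692884, plus strand) had 541, 515, 562, 552, 506, 541, 642 and 586 CPM in the 8 control mice. With imatinib it had 418, 343, 441, 393, 359, 445, 480 and 419 CPM, and with nilotinib at 30 mg/kg 417, 337, 283, 395, 421, 375, 354 and 336 CPM. Every mouse of these 2 groups lay below the lowest control mouse.
The other groups called lower also lay below the control mice, with 1 exception. With nilotinib at 10 mg/kg the level was 366 to 437 CPM (median 389), with L-NAME 287 to 397 CPM (median 333), and with ponatinib at 10 mg/kg 310 to 560 CPM (median 351). The exception was replicate 4 of the ponatinib 10 mg/kg group, which had 560 CPM and lay among the control mice.

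Eif4g1 fell by 0.43 on the log2 scale with imatinib (SE 0.10, edgeR adjusted p = 0.00244), by 0.49 with nilotinib at 10 mg/kg (SE 0.10, adjusted p = 0.00742), by 0.61 with nilotinib at 30 mg/kg (SE 0.10, adjusted p = 9.52e-05), by 0.57 with ponatinib at 10 mg/kg (SE 0.10, adjusted p = 6.21e-05) and by 0.69 with L-NAME (SE 0.10, adjusted p = 1.88e-05). In percent, these differences ran from -25.8% with imatinib to -37.8% with L-NAME. The exact two-sided permutation test of log2 CPM gave p = 0.000155 for imatinib, both nilotinib doses and L-NAME, which is the smallest value that 8 against 8 mice allow. With ponatinib at 3 mg/kg all 8 mice, at 350 to 500 CPM, also lay below every control mouse, which gives the same smallest exact permutation p of 0.000155. The log2 fold change of -0.28 (SE 0.10) in that group did not pass the edgeR adjustment over all genes (adjusted p = 0.288). With the share of reads outside genes as a covariate the change had an adjusted p below 0.05 in 4 of the 5 comparisons, with log2 fold changes of -0.33 to -0.54, and at nilotinib 10 mg/kg it did not (-0.40, adjusted p = 0.061).

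The other scaffold-type members moved less. Eif4g2 (DAP5), whose product binds eIF4A but lacks the site for eIF4E, had 509 to 594 CPM in control mice and was lower with nilotinib at 30 mg/kg (log2 fold change -0.30, SE 0.09, adjusted p = 0.0368), ponatinib at 10 mg/kg (-0.32, SE 0.09, adjusted p = 0.013) and L-NAME (-0.39, SE 0.09, adjusted p = 0.00281). All 8 mice of the nilotinib 30 mg/kg group and all 8 of the L-NAME group lay below the lowest control, whereas ponatinib 10 mg/kg replicate 4 had 629 CPM, above the highest control. Without control replicate 1 the nilotinib value was -0.29 (adjusted p = 0.0559). With the covariate the 3 calls were lost (-0.20 to -0.27, adjusted p = 0.162 to 0.424). Eif4g3, the remaining eIF4G paralog, was called in 0 of the 6 comparisons.

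Among the helicase subunits, Eif4a1 was higher with imatinib (log2 fold change 0.58, SE 0.19, adjusted p = 0.0339) and with L-NAME (0.63, SE 0.19, adjusted p = 0.0169), where 6 of 8 mice lay above every control. Its control mice had 25.4 to 40.7 CPM and the L-NAME mice 37.4 to 64.4 CPM. Ponatinib at 10 mg/kg gave 0.51 (SE 0.19, adjusted p = 0.0554), and 6 of its 8 mice lay above the controls. Without control replicate 1 the imatinib value was 0.54 (adjusted p = 0.0744), and with the covariate both calls were lost (0.44 and 0.42, adjusted p = 0.209 and 0.346). Eif4a2, which encodes an interchangeable helicase, was called in 0 comparisons, and the ratio of Eif4a2 to Eif4a1 per kb had a median of 5.37 in control mice, 4.09 with imatinib, 3.99 and 5.02 with nilotinib at 10 and 30 mg/kg, 5.64 and 3.72 with ponatinib at 3 and 10 mg/kg and 3.26 with L-NAME. 28.4% of the 50-base stretches of Eif4a1 transcripts occur in transcripts of other genes, processed pseudogenes among them, so its count is less certain than that of Eif4g1, at 0.0%. Eif4b was called with nilotinib at 30 mg/kg alone of the 6 comparisons, where it was lower (209 to 275 CPM against 229.7 to 367 CPM in controls, log2 fold change -0.39, SE 0.10, adjusted p = 0.0115), and it was singled out after its values were seen.

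Eif4e3 encodes a cap-binding protein of the eIF4E family, and it changed with imatinib. The control mice had 13.1, 15.5, 12.3, 5.36, 23.5, 12.1, 11.2 and 7.83 CPM and the imatinib mice 6.13, 4.37, 3.56, 6.25, 6.05, 2.57, 4.34 and 7.35 CPM. 4 imatinib mice lay below the lowest control, and the groups overlapped. The log2 fold change was -1.31 (SE 0.34, edgeR adjusted p = 0.00724; exact two-sided permutation p = 0.00124), the largest of any called member in the imatinib comparison, and with the covariate for reads outside genes it was -1.27 (adjusted p = 0.0272). With ponatinib at 10 mg/kg it was -0.62 (SE 0.33, adjusted p = 0.224). Markers of resident liver macrophages fell in the same comparison, where 4.58% of all genes were called lower. 4 of 8 Kupffer cell markers (Adgre1, Cd5l, Cd68 and Csf1r) were lower. The summed level over all 8 was 421 to 883 CPM with imatinib and 749 to 1520 CPM in control mice, none at 0. Of 8 stellate cell and fibroblast markers 3 were lower (Col1a1, Col1a2 and Col3a1), with a summed level of 324 to 492 CPM against 418 to 1208 CPM. Their part in the Eif4e3 result was not tested. 14.8% of the Eif4e3 exon bases are shared with the overlapping gene Gm20696.

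The binding proteins of eIF4E moved unequally. Eif4ebp2 (ENSMUSG00000020091, chromosome 10, 61428491 to 61452661, minus strand) had 69.2, 34.9, 47.4, 59.2, 66.2, 49.0, 123 and 104 CPM in control mice. With ponatinib at 10 mg/kg it had 27.2, 27.3, 12.7, 74.2, 26.5, 27.8, 29.1 and 20.3 CPM, and with L-NAME 29.5, 21.0, 36.1, 23.5, 38.6, 21.8, 25.5 and 24.1 CPM. 7 of 8 ponatinib mice and 6 of 8 L-NAME mice lay below the lowest control, and the ponatinib mouse at 74.2 CPM was again replicate 4.
With imatinib 6 mice had 16.0 to 40.9 CPM, and replicates 7 and 8 had 97.0 and 88.7 CPM. The nilotinib mice had 23.3 to 39.5 CPM at 10 mg/kg and 12.4 to 42.8 CPM at 30 mg/kg. Ponatinib at 3 mg/kg, with 37.6 to 79.2 CPM, overlapped the control range throughout.

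**Figure D3:**
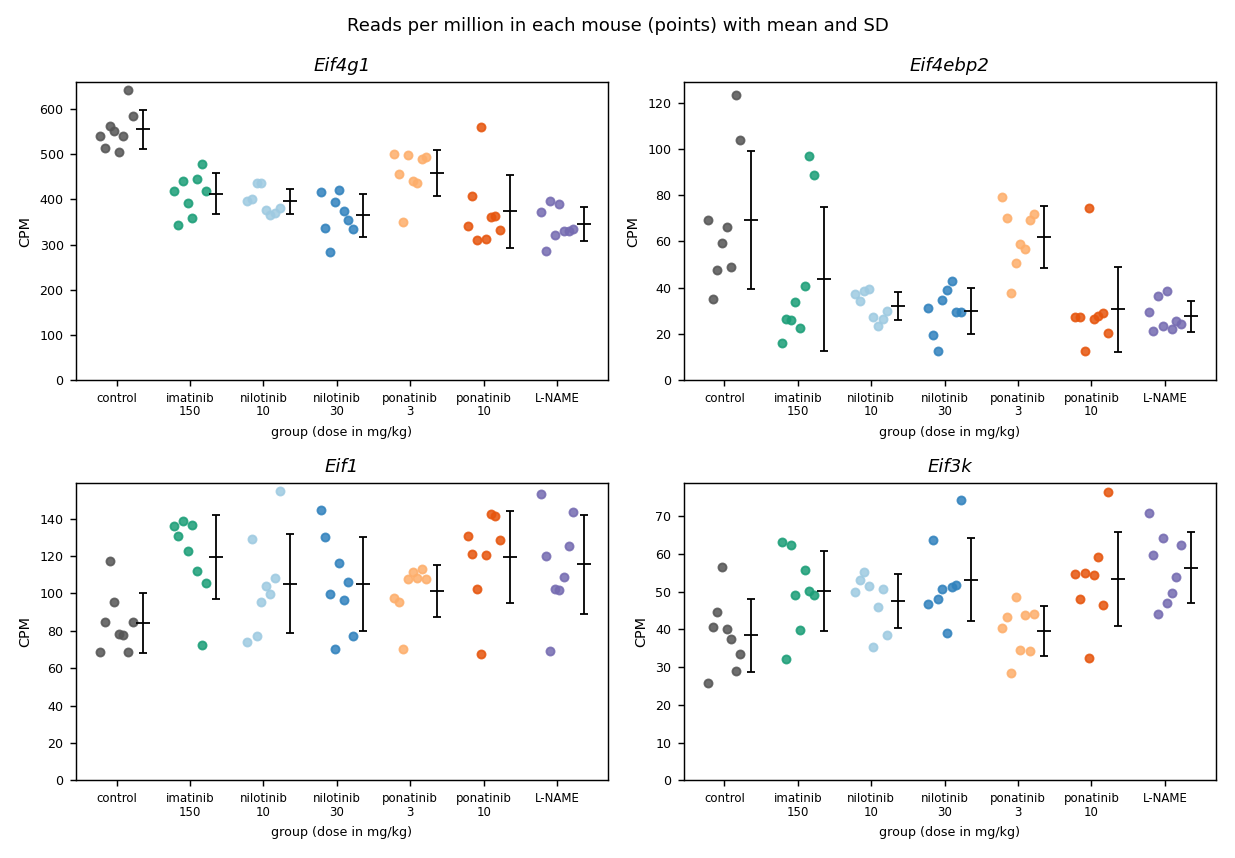
Level in CPM of Eif4g1, Eif4ebp2, Eif1 and Eif3k in each of 56 mice (points) by group, with the mean and 1 SD beside them. Eif4g1 in control mice sits between 506 and 642 CPM, above all treated mice but 1 ponatinib 10 mg/kg mouse at 560 CPM.

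The fall of Eif4ebp2 passed the test with nilotinib at 10 mg/kg (log2 fold change -1.11, SE 0.27, edgeR adjusted p = 0.0241) and 30 mg/kg (-1.22, SE 0.28, adjusted p = 0.00432), ponatinib at 10 mg/kg (-1.18, SE 0.28, adjusted p = 0.00222) and L-NAME (-1.33, SE 0.28, adjusted p = 0.000719). In percent, the means of the 4 groups differed from control by -53.8 to -60.3%. With imatinib the log2 fold change was -0.65 (SE 0.27, adjusted p = 0.117) and with ponatinib at 3 mg/kg -0.16 (SE 0.27, adjusted p = 0.908). Without ponatinib 10 mg/kg replicate 4 the ponatinib value was -1.50 (adjusted p = 4.75e-05). With the covariate for reads outside genes the values were -0.78 to -0.88 and the calls were lost (adjusted p = 0.108 to 0.189).

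Eif4ebp1, the best studied mTORC1 target of this group, was called in 0 comparisons, and its log2 fold changes were 0.10 to 0.36. Per kb of exon, the ratio of Eif4ebp2 to Eif4ebp1 had a median of 0.634 in control mice, 0.233 with imatinib, 0.266 and 0.31 with nilotinib, 0.491 with ponatinib at 3 mg/kg, 0.188 with ponatinib at 10 mg/kg and 0.218 with L-NAME. All 8 L-NAME mice and 7 of 8 ponatinib 10 mg/kg mice lay below the lowest control ratio of 0.325. This ratio was chosen after the values were seen and was not tested. Eif4ebp3 was under 3 CPM in every mouse and 67.3% of its exon bases are shared with an overlapping gene, so its values are uncertain. Eif4enif1, whose product carries eIF4E into the nucleus, was called in 0 comparisons (log2 fold changes -0.13 to -0.37).

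Of the 4 EIF2 alpha kinase genes, 1 was called lower with imatinib, 2 with ponatinib at 10 mg/kg and 1 with L-NAME, beside 4.58%, 5.87% and 6.24% of all genes called lower. Eif2ak3 (PERK, the kinase of the endoplasmic reticulum stress response) had 53.0, 29.8, 23.3, 15.5, 21.8, 27.0, 17.4 and 18.7 CPM in control mice. With imatinib it had 17.3, 14.7, 13.1, 16.9, 18.2, 12.3, 19.2 and 14.3 CPM, and with ponatinib at 10 mg/kg 14.6, 15.8, 14.0, 22.7, 9.19, 15.3, 13.4 and 6.86 CPM. The ranges overlapped, with 4 imatinib and 6 ponatinib mice below the lowest control, and the control mouse at 53.0 CPM, replicate 1, stood apart from the other 7. Eif2ak3 fell by 0.72 on the log2 scale with imatinib (SE 0.23, adjusted p = 0.0351) and by 0.89 with ponatinib at 10 mg/kg (SE 0.23, adjusted p = 0.00627). Without control replicate 1 the values were -0.48 (adjusted p = 0.197) and -0.65 (adjusted p = 0.0523), so neither call held without that mouse. Leaving it out lost 12 calls of named members in all. With the covariate both Eif2ak3 calls were also lost (adjusted p = 0.132 and 0.0975). With L-NAME the change was -0.65 (SE 0.23, adjusted p = 0.053).

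Eif2ak1 (HRI) had 43.4 to 65.9 CPM in control mice, 35.2 to 49.4 CPM with ponatinib at 10 mg/kg and 37.9 to 53.5 CPM with L-NAME. It was lower in these 2 groups by 0.38 (SE 0.12, adjusted p = 0.0221) and 0.36 (SE 0.12, adjusted p = 0.0336) on the log2 scale, with 3 and 4 of 8 mice below the lowest control. Without the deepest L-NAME library, replicate 2, the L-NAME value was -0.33 (adjusted p = 0.0741), and with the covariate both calls were lost (-0.33 and -0.30, adjusted p = 0.204 and 0.262). 11.6% of its exon bases overlap genes on the other strand, Aimp2 among them. Eif2ak2 (PKR) and Eif2ak4 (GCN2) were called in 0 comparisons, with log2 fold changes of -0.33 to 0.21 and -0.17 to 0.41. With SEs of 0.20 to 0.26, differences of that size were not detectable.

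**Figure D4:**
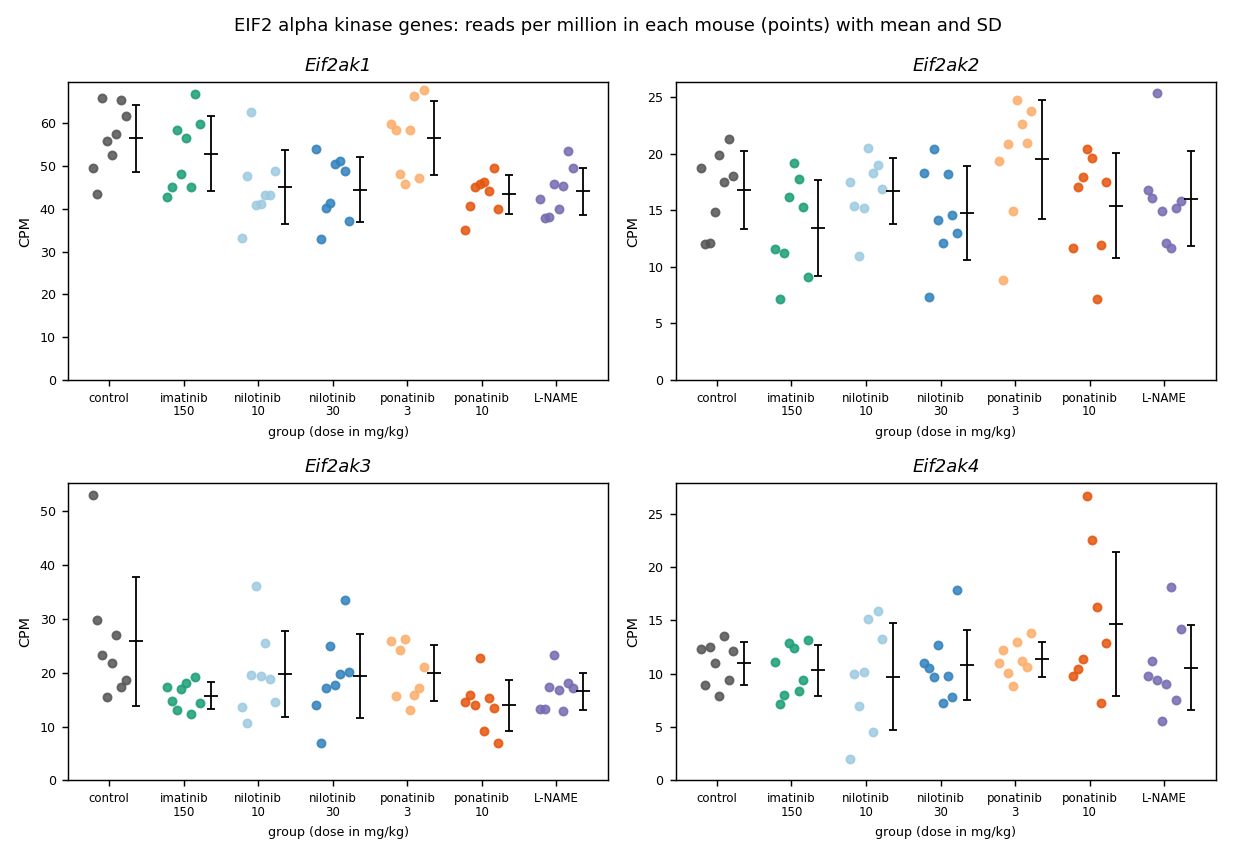
Level in CPM of the 4 EIF2 alpha kinase genes in each mouse (points) by group, with the mean and 1 SD beside them. For Eif2ak3 the imatinib mice lie between 12.3 and 19.2 CPM, and 1 control mouse at 53.0 CPM stands apart from the other controls.

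The phosphorylated subunit of eIF2 and the exchange factor eIF2B had no call. Of the 4 tRNA-delivering factors and the 5 subunits of eIF2B, 0 were called in any of the 9 comparisons, where 0.0 to 13.1% of all genes were called. Eif2s1, which encodes the phosphorylated alpha subunit, had log2 fold changes against control from -0.40 (L-NAME, SE 0.16, adjusted p = 0.0937) to 0.11, and Eif2s2, the beta subunit, from -0.07 to 0.26.

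eIF3 subunits split by gene. Eif3k, Eif3g and Eif3f rose and Eif3c and Eif3a fell, among 14 subunit genes. Eif3k, a peripheral subunit, had 25.8, 40.8, 44.7, 56.6, 40.0, 37.6, 29.0 and 33.6 CPM in control mice and 70.8, 59.7, 44.0, 64.1, 46.9, 49.6, 53.8 and 62.5 CPM with L-NAME, with 4 of 8 above every control. Its log2 fold change was 0.55 with L-NAME (SE 0.15, adjusted p = 0.00722), 0.47 with ponatinib at 10 mg/kg (SE 0.15, adjusted p = 0.0225) and 0.47 with nilotinib at 30 mg/kg (SE 0.15, adjusted p = 0.0406).
Eif3g, an RNA-binding subunit, had 41.5 to 75.7 CPM in control mice. It was higher with imatinib (0.39, SE 0.12, adjusted p = 0.0302), nilotinib at 30 mg/kg (0.46, SE 0.12, adjusted p = 0.0161) and L-NAME (0.39, SE 0.12, adjusted p = 0.0274). Eif3f, which mTORC1 and S6 kinase are known to contact, was higher with imatinib (0.38, SE 0.11, adjusted p = 0.0223) and nilotinib at 30 mg/kg (0.41, SE 0.11, adjusted p = 0.0184), with 5 of 8 mice of each group above every control.
Without control replicate 1 several of these calls were lost. Eif3k had 0.40 with nilotinib at 30 mg/kg (adjusted p = 0.117) and 0.41 with ponatinib at 10 mg/kg (adjusted p = 0.0677), Eif3g 0.39 with imatinib (adjusted p = 0.0535) and 0.38 with L-NAME (adjusted p = 0.0515), and Eif3f 0.35 with imatinib (adjusted p = 0.0508). With the covariate for reads outside genes all 8 calls of these 3 subunits were lost, at log2 fold changes of 0.29 to 0.46.

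In the other direction, Eif3c, a core scaffold subunit, had 98.6 to 158 CPM in control mice, 86.2 to 139 CPM with ponatinib at 10 mg/kg and 77.1 to 132 CPM with L-NAME. It fell by 0.42 (SE 0.11, adjusted p = 0.00573) and 0.48 (SE 0.11, adjusted p = 0.00184) on the log2 scale, with 4 of 8 mice in each group below the lowest control. With the covariate for reads outside genes both calls were lost (-0.29, adjusted p = 0.192, and -0.35, adjusted p = 0.112). Eif3a, the largest subunit, was called with L-NAME alone of the 6 comparisons, where it was lower (-0.36, SE 0.12, adjusted p = 0.0346), and without control replicate 1 the value was -0.33 (adjusted p = 0.073). Eif3j1 and Eif3j2 share 50.9% and 91.8% of their 50-base stretches with other genes, each other among them, so reads cannot be assigned to one of them with certainty, and neither was called.

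Eif1, the guardian of start codon choice, had 68.5, 84.8, 117, 95.2, 78.1, 77.9, 68.5 and 84.5 CPM in control mice. With imatinib it had 136, 131, 139, 123, 136, 112, 72.3 and 106 CPM and with ponatinib at 10 mg/kg 131, 121, 103, 67.4, 121, 142, 141 and 128 CPM. 5 imatinib mice and 6 ponatinib mice lay above the highest control, and ponatinib replicate 4, at 67.4 CPM, lay below the lowest. The log2 fold changes were 0.50 with imatinib (SE 0.15, adjusted p = 0.0239), 0.50 with ponatinib at 10 mg/kg (SE 0.15, adjusted p = 0.0197) and 0.45 with L-NAME (SE 0.15, adjusted p = 0.038). Without control replicate 1 they were 0.46 with imatinib (adjusted p = 0.0593) and 0.41 with L-NAME (adjusted p = 0.0899), and without L-NAME replicate 2 the L-NAME value was 0.45 (adjusted p = 0.0625). With the covariate the 3 values were 0.38 to 0.45 and the calls were lost (adjusted p = 0.097 to 0.294). 19.2% of the 50-base stretches of Eif1 transcripts occur in transcripts of 18 other genes, so its count is uncertain. The other 4 members of the scanning group, Eif1a, Eif1ad, Eif1b and Eif5, were called in 0 comparisons. Eif5b, the GTPase that joins the ribosomal subunits, was lower with L-NAME, where all 8 mice (29.0 to 49.7 CPM) lay below the lowest control at 51.0 CPM (-0.42, SE 0.13, adjusted p = 0.0226). With the covariate the value was -0.35 and the call was lost (adjusted p = 0.232). 16.8% of its exon bases overlap Rev1 on the other strand. Eif5a, the most abundant member per kb, had log2 fold changes of -0.01 to 0.11 and was called in 0 comparisons.

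The members called higher had shorter transcripts than those called lower. Merged exon length was 1984 to 4334 bases (median 2698) for the 5 called higher, 2515 to 10166 bases (median 5905) for the 10 called lower, and 744 to 11063 bases (median 4560) for the 36 not called. Across the 51 members, Spearman's rho between exon length and log2 fold change was -0.42 with imatinib, -0.22 and -0.33 with nilotinib at 10 and 30 mg/kg, -0.33 and -0.32 with ponatinib at 3 and 10 mg/kg and -0.51 with L-NAME. Over 14267 genes with a length the rho was -0.27, -0.17, -0.25, -0.18, -0.23 and -0.26. Genes are not independent replicates, and these values share the same control mice. Genes were split into 4 length classes of equal size. In the shortest class (up to 2408 bases) the median log2 fold change was 0.22 with imatinib and 0.24 with L-NAME, and in the longest class (over 6466 bases) it was -0.15 and -0.12. Eif4g1, at 7301 bases, fell by 0.43 with imatinib and by 0.69 with L-NAME, beyond the median of its class. The part of length in these differences was not tested.

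**Figure D5:**
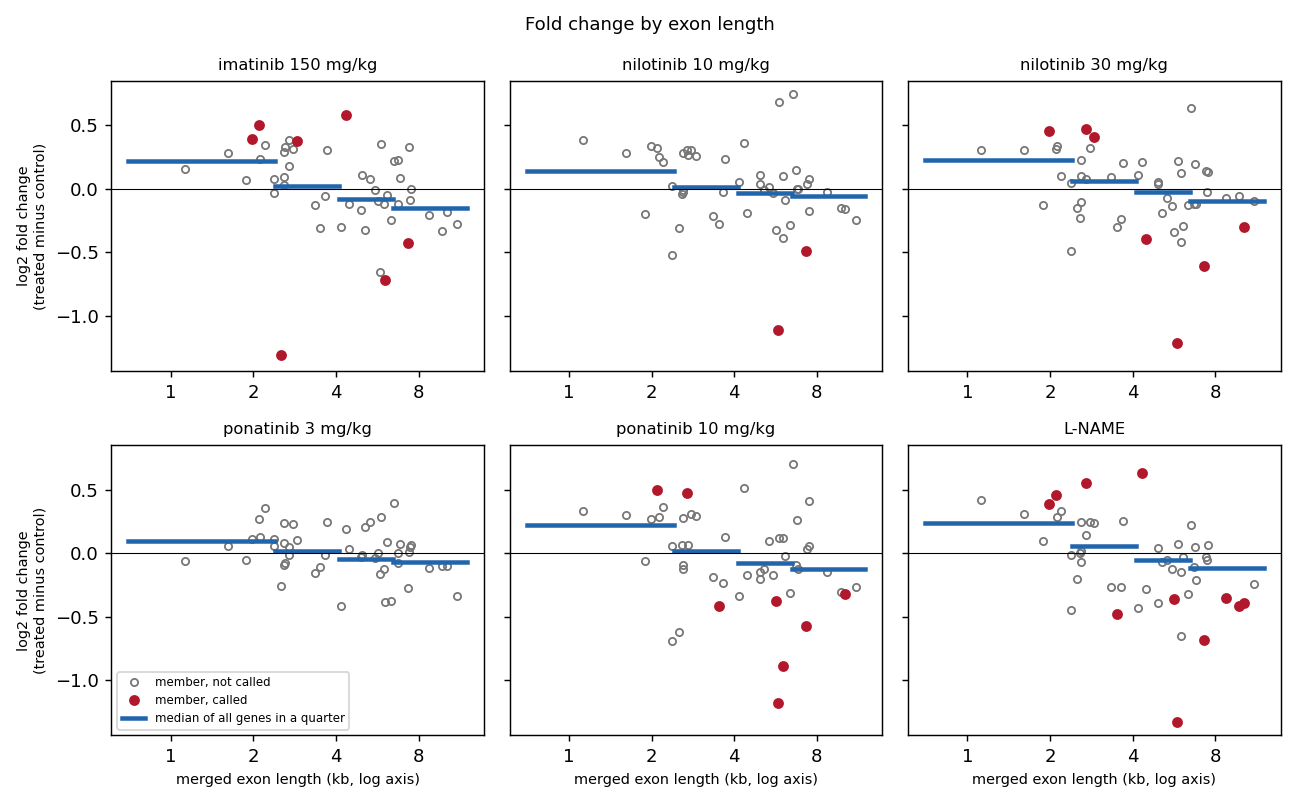
log2 fold change against control by merged exon length in kb (log axis) for 49 members in 6 comparisons, with called members filled and the median of all genes in each of 4 length classes as a bar. Bars step down from short to long genes in every panel, for imatinib from 0.22 to -0.15, and Eif4ebp3 and Eif5a2 are left out.

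The relation of 8 members to the share of reads outside genes was also computed inside the groups, and none passed the adjustment. With group means removed, its correlation with log2 CPM over 56 mice was r = -0.43 for Eif4g1 (permutation within groups, p = 0.0065; adjusted over 8 relations, 0.052) and rho = -0.33 (permutation p = 0.0214; adjusted 0.0571). Dropping the 2 libraries with the most extreme shares gave r = -0.32, and within single groups r ran from -0.80 to 0.17, below 0 in 5 of 7. For Eif4ebp2 r was -0.36 (permutation p = 0.0156; adjusted 0.0541) and rho -0.34 (permutation p = 0.0128; adjusted 0.0512), with r = -0.29 after dropping those 2 and -0.92 to 0.42 within groups. For Eif4g2 r was -0.36 (permutation p = 0.0203; adjusted 0.0541) and rho -0.38 (permutation p = 0.00746; adjusted 0.0512), with r = -0.36 after dropping those 2 and -0.66 to 0.27 within groups. The other 5 members examined had r between -0.09 and 0.31. Since the control group had the lowest median share (8.11%), group and share cannot be fully told apart. The ranges of ponatinib at 3 mg/kg (8.05 to 10.0%) and imatinib (8.39 to 14.4%) overlapped that of the control mice.

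The question of dose was addressed within each compound. Ponatinib at 10 against 3 mg/kg had 1 member called, beside 1.39% of all genes, and this was Eif4ebp2, with a mean of 30.6 against 61.7 CPM (log2 fold change -1.01, SE 0.28, adjusted p = 0.0427; 7 of 8 mice at 10 mg/kg below the lowest at 3 mg/kg). Without ponatinib 10 mg/kg replicate 4 it was -1.34 (adjusted p = 0.00164), and 6 members were called in place of 1. Without the 6 libraries above 12% of reads outside genes it was -0.85 (adjusted p = 0.293). The call was also lost with that share as a covariate and without the L-NAME group. The share was 8.05 to 10.0% at 3 mg/kg and 9.23 to 15.5% at 10 mg/kg, so dose and share cannot be fully told apart. Eif4g1 differed by -0.30 between the doses (95% interval -0.49 to -0.10, adjusted p = 0.109). Nilotinib at 30 against 10 mg/kg had 0 members called by edgeR and by DESeq2, beside 0.0% of all genes by edgeR, and 6 of 51 members had an unadjusted p below 0.05, beside 5.67% of all genes (812). The dose difference was -0.12 for Eif4g1 (95% interval -0.31 to 0.07) and -0.10 for Eif4ebp2 (95% interval -0.64 to 0.44).

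Ponatinib and nilotinib could be compared at the same dose by weight, 10 mg/kg a day, as 1 pair. Plasma exposure did not match: the study's values at this dose were higher for nilotinib than for ponatinib. The study reported patient-like exposure at the lower dose of each drug. Compound and exposure therefore cannot be told apart in this pair. Ponatinib carries an alkyne linker that nilotinib lacks. 0 members were called by edgeR and by DESeq2, beside 2.06% of all genes by edgeR, and 7 of 51 members had an unadjusted p below 0.05, beside 15.3% of all genes (2187). For Eif4g1 the difference of ponatinib minus nilotinib was -0.08 (95% interval -0.27 to 0.11, adjusted p = 0.753), for Eif4ebp2 -0.06 (95% interval -0.60 to 0.48, adjusted p = 0.947), for Eif1 0.18 (95% interval -0.12 to 0.48) and for Eif3k 0.17 (95% interval -0.12 to 0.45). These intervals leave room for a difference in either direction. Imatinib was given at another dose and schedule, and its values stand beside the others without a comparison.

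Genes that act with the members were read from lists by function. The shares of all genes called in each comparison, given above, are the background for these lists. The calls in the lists are from the edgeR fit without a covariate, and how they fared in other fits is not given. With the share of reads outside genes as a covariate, most member calls were lost and fewer of all genes were called. Tested genes of the eIF2 alpha phosphatase and of regulators of the EIF2 kinases numbered 7. Hspa5, the endoplasmic reticulum chaperone that restrains PERK, was lower with ponatinib at 10 mg/kg (log2 fold change -0.95, SE 0.22, adjusted p = 0.00199) and L-NAME (-0.86, SE 0.22, adjusted p = 0.00564). Dnajc3, an inhibitor of PERK and PKR, was lower in the same 2 groups (-0.64 and -0.57). Hspa5 was also lower with ponatinib than with nilotinib at 10 mg/kg each (-0.89, SE 0.22, adjusted p = 0.0188). Ppp1r15b, the constitutive partner of the eIF2 phosphatase, was lower with nilotinib at 30 mg/kg (-0.44, SE 0.12, adjusted p = 0.0122), and Ppp1cb, its catalytic subunit, with L-NAME (-0.47). Of 18 tested ATF4 list genes, Atf4 itself was higher with imatinib (0.34), nilotinib at 30 mg/kg (0.38), ponatinib at 10 mg/kg (0.50) and L-NAME (0.34), and with ponatinib at 10 against 3 mg/kg (0.40, SE 0.11, adjusted p = 0.0401), and Atf3 was lower with imatinib (-1.53) and ponatinib at 10 mg/kg (-1.57). The other 16 were called in 0 comparisons with control.

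Of 13 genes of mTORC1 and MNK signaling to the eIF4 factors, Tsc2, an inhibitor of mTORC1, was lower with nilotinib at 10 mg/kg (-0.45, SE 0.13, adjusted p = 0.0467) and 30 mg/kg (-0.51, SE 0.13, adjusted p = 0.00826). Larp1 was lower with L-NAME (-0.46). Mlst8, an mTORC1 subunit, was higher with ponatinib at 10 than at 3 mg/kg (0.82, SE 0.22, adjusted p = 0.0402). Of 8 tested poly(A)-binding and recycling genes, Pabpc1, whose product binds eIF4G, was lower with imatinib (-0.46), ponatinib at 10 mg/kg (-0.43) and L-NAME (-0.42), and Gspt1 and Abce1, which end translation and recycle ribosomes, were lower in the last 2. Of 9 genes listed for translation elongation, some of them not elongation factors themselves, 1 to 3 were called higher in each comparison with control but ponatinib at 3 mg/kg, which had 0. In the comparisons with such calls, 0.468 to 7.24% of all genes were called higher. Eef1g was higher in 5 of 6 comparisons with control (0.49 to 0.65), Eef1d in 3 (0.58 to 0.64) and Eef1b2 in 3 (0.31 to 0.40), and 0 of the 9 were called lower.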

How the data were processed

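Poly(A)-selected liver RNA of 56 mice (NEBNext kit) was sequenced on an Illumina NextSeq 500. Per the labels and the methods of the study, the authors aligned reads to GRCm38 with TopHat2 2.0.14 and Bowtie2 2.1.0 and deposited unnormalized read counts per gene from HTSeq 0.6.1p1; SAMtools 0.1.18 is also named. The strand setting of the counting was not given in the sources used here. Lines that name no gene were kept out of library sizes and tests. Reads outside genes, those assigned to no annotated feature, were 7.77 to 17.2% of counted and unassigned reads.

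Groups came from the treatment labels; replicate numbers follow accession order and pair nothing. Counts were filtered by edgeR's filterByExpr, TMM-scaled and fitted in 1 quasi-likelihood model (edgeR 4.0.16, R 4.3.3) over 7 groups, with 9 contrasts and Benjamini-Hochberg adjustment over 14314 genes. Exact two-sided permutation tests used log2(CPM + 0.5). The alternatives were RLE factors, DESeq2 1.42.0, limma 3.58.1 voom with sample weights, no filter, no L-NAME group, the share of reads outside genes as covariate and an unadjusted p below 0.01; 4 settings leaving out libraries were added after seeing the data. The edgeR step was tested on simulated data with known fold changes. 842 of 45513 listed gene identifiers were not found in GENCODE vM21, and 12 members had no window in the promoter table.

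Genes named in the text were those called in at least 2 of the 5 kinase inhibitor comparisons, the EIF2 kinases, Eif2s1, Eif2s2 and the eIF4E-binding proteins, members called against the main direction of their comparison, the members with the highest and lowest level per kb, and those called for L-NAME or between doses; other names were chosen after their values were seen. The members and lists were chosen with earlier results of these data known. The edgeR p-values test differences between groups against the spread between mice, and depth limits members under about 1 CPM.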

Additional observations from a re-analysis of the deposited data

Results flagged for a closer look

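In groups of 8 mice, 1 mouse stood farther from the others than Dixon's 95% limit in 20 of 161 groups of named members. A rate of 1 in 20 would give 8.05 for independent tests of normally spread values. The same mice recur for every member, and Eif4ebp3 and Eif5a2 had 0 reads in several mice of most groups. The count of 20 therefore cannot be judged against 8.05. Ponatinib 10 mg/kg replicate 4 was the highest mouse of its group for Eif4g1 (560.3 CPM, next 406.6), Eif4ebp2 (74.2 CPM, next 29.1), Eif4g2 (628.6 CPM, next 469.2) and Eif3a (215.8 CPM, next 136.1). Its share of reads outside genes was 9.30%, near the low end of its group (9.23 to 15.5%). Ponatinib 3 mg/kg replicate 3 was lowest for Eif4g1 (350.3 CPM) and Eif1 (70.3 CPM) and highest for Eif5a2 (3.77 CPM). Control replicate 3 was highest for Eif3f (92.7 CPM) and Eif4ebp1 (55.4 CPM) and lowest for Eif3c (98.6 CPM), and control replicate 1 was highest for Eif2ak3 (52.96 CPM). The remaining single mice were the highest for Eif3g with nilotinib at 30 mg/kg (96.5 CPM), Eif2ak2 with L-NAME (25.4 CPM) and Eif5b with ponatinib at 3 mg/kg (80.1 CPM), and the lowest for Eif4enif1 with ponatinib at 3 mg/kg (8.91 CPM). Near the detection limit, single mice stood apart for Eif4ebp3 in control (1.37 CPM), imatinib (2.0 CPM) and nilotinib 10 mg/kg mice (0.346 CPM), and for Eif5a2 with nilotinib at 30 mg/kg (3.58 CPM) and ponatinib at 10 mg/kg (0.785 CPM).

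Eif4ebp2 was flagged because its level differed between the 2 ponatinib doses (log2 fold change -1.01, edgeR adjusted p = 0.0427).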

How the results depend on the processing

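35 calls of named members in 9 comparisons were recomputed. None changed sign under the 10 alternatives that refit them, and 35 of 35 held with DESeq2 and without ponatinib 10 mg/kg replicate 4, 34 with RLE factors and with limma voom, 33 without the deepest library, 32 without the L-NAME group, 27 without the filter on low counts, 23 without control replicate 1, 22 without the 6 libraries above 12% of reads outside genes, and 5 with that share as a covariate. Calls lost with few alternatives were Eif4g2 with nilotinib at 30 mg/kg under RLE factors (-0.29, adjusted p = 0.0502), Eif2ak3 with imatinib under voom (-0.53, adjusted p = 0.0641) and, without the L-NAME group, Eif4g2 (-0.30, adjusted p = 0.0512) and Eif3k (0.47, adjusted p = 0.0505) with nilotinib at 30 mg/kg and Eif4ebp2 between ponatinib doses (-1.01, adjusted p = 0.06). The number of members called by limma voom was 16 with imatinib, 11 and 13 with nilotinib at 10 and 30 mg/kg, 2 and 15 with ponatinib at 3 and 10 mg/kg, 21 with L-NAME and 7 between ponatinib doses, in a fit that called 3327, 1240, 2349, 571, 3743, 3737 and 995 genes in all. With the share as a covariate the number was 2 with imatinib, 0 and 1 with nilotinib at 10 and 30 mg/kg, 1 with ponatinib at 10 mg/kg, 1 with L-NAME and 0 between ponatinib doses. Unadjusted p below 0.01 gave 5 with nilotinib at 10 mg/kg, 1 with ponatinib at 3 mg/kg, 5 between ponatinib doses and 2 between nilotinib doses, beside 5.97%, 3.14%, 5.78% and 1.32% of all genes. Without the low-count filter L-NAME had 7 members. Between ponatinib doses the count was 3 with DESeq2, 0 without the filter, 0 without the L-NAME group and 0 without the 6 libraries. Without those 6 libraries imatinib had 3 members and ponatinib at 10 mg/kg 4. Leaving out a single mouse (control replicate 1 or ponatinib 10 mg/kg replicate 4), the count was 2 to 9 with imatinib and 1 to 6 between ponatinib doses. The cause of these moves was not tested. No paired analysis was possible because the replicate numbers follow accession order and pair no mice.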
